A study of Mus musculus with 2 samples.

Results

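Mir208a, Mir208b and Mir499 are the cardiac microRNA (miRNA) genes that lie inside introns of myosin heavy chain genes. They were taken by gene ID, through the GENCODE M21 annotation, from a count table of 1973 miRNA genes, and all 3 were found there with the same ID version. MicroRNA sequencing of RNA under 30 nt measured them in hearts of healthy B6NCrl mouse embryos at 11.5 days, with both sexes pooled and no treatment or genetic change named. The 2 libraries are biological replicates 1 and 2 of this 1 group. Replicate 1 pooled hearts of 109 embryos. For replicate 2 the labels give no number, and for neither do they name litters.

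A miRNA is cut from a hairpin in a longer transcript, and 1 arm of the hairpin then guides Argonaute proteins to messenger RNAs, mainly through the seed, bases 2 to 8 from its 5′ end. The host genes encode motor proteins of the sarcomere. Myh6 encodes the alpha myosin heavy chain, the fast form of the adult mouse heart, Myh7 encodes the beta form, which is found in the embryonic ventricle and in slow skeletal muscle, and Myh7b is a divergent relative of both. In the adult heart miR-208a is known for its part in the beta myosin response to stress. For miR-208b and miR-499 the known link is to the slow muscle program.

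The mature arms that are known as the guide strands are printed here because their seeds relate the 3 genes. They come from RefSeq on GRCm38.p6, the same build as mm10, and the table matched 3 of 3 members. Capitals mark the seed.
miR-208b-3p: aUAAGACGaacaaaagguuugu
miR-208a-3p: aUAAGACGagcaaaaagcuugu
miR-499-5p: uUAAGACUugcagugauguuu

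miR-208a-3p and miR-208b-3p had the same seed, and no other of the 1738 mature mouse sequences in that table shared it. With positions counted from 1 at the 5′ end and the base of miR-208a-3p named first, the pair differed by G10A, A16G and C18U and matched at 19 of 22 bases. miR-499-5p carried a seed of its own, G8U relative to either miR-208 sequence, and no other listed sequence had it. From base 2 onward the 3 sequences had 6 bases in common, UAAGAC, and at bases 2 to 7 only these 3 of 1738 mature sequences carried them. Over the whole length miR-499-5p matched miR-208a-3p at 12 of 21 bases and miR-208b-3p at 10 of 21, these 6 bases included.

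The hairpins are printed because the counts cover a whole hairpin, not 1 arm. Capitals mark the mature arm printed above.
Mir208b: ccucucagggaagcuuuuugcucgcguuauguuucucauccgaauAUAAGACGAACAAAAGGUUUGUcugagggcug
Mir208a: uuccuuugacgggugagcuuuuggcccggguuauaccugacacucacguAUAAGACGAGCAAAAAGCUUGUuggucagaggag
Mir499: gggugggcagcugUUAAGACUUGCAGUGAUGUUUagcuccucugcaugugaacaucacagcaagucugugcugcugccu

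In both miR-208 hairpins the guide arm is the 3′ arm, at bases 46 to 67 of 77 in Mir208b and at bases 50 to 71 of 83 in Mir208a. In Mir499 it is the 5′ arm, at bases 14 to 34 of 79. Each hairpin began and ended at the same bases as the M21 model of its gene. The counts were made with GENCODE M4, whose models were not compared. The longest run of bases that the miR-208b-3p sequence shared with the Mir208a hairpin was 9, so a read of the whole arm differs between these genes. Among 1005 hairpins of the table each whole mature sequence occurred in 1, its own. Among 141767 annotated transcripts each also occurred in 1. Reads that map to several places stand on no gene, and they were 33.8% and 33.2% of the mapped reads of replicates 1 and 2; occurrences outside hairpins and annotated transcripts were not searched.

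The place of each gene was read from M21 on GRCm38. Mir208b (ENSMUSG00000077928.1) lies on the minus strand at chr14:54975700-54975776, in intron 31 of the 41-exon Myh7 transcript Myh7-201. That intron is 461 bases long, and the hairpin starts 102 bases after exon 31. Mir208a (ENSMUSG00000065432.1) lies on the minus strand at chr14:54949060-54949142, in intron 29 of the 39-exon Myh6 transcript Myh6-201. Its intron is 542 bases long, and the hairpin starts 195 bases after exon 29. Mir499 (ENSMUSG00000076312.1) lies on the plus strand at chr2:155622880-155622958, in intron 19 of the 42-exon Myh7b transcript Myh7b-201. Its intron is 481 bases long, and the hairpin starts 158 bases after exon 19. In all 3 genes the hairpin lay nearer to the exon before it than to the exon after it, which followed at 282, 264 and 244 bases for Mir208b, Mir208a and Mir499.

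Along the host transcripts Mir208b lay 18850 bases from the start, 78.7% of the way, and Mir208a 17499 bases from the start, 70.8% of the way. Mir499 lay nearer the middle of its host, at 50.5%. Myh7 and Myh6 follow each other on the same strand with 3756 bases between them, and 26557 bases separate Mir208b from Mir208a. Mhrt, an antisense RNA gene of this locus, ends 1350 bases short of Mir208b, and no annotated gene overlaps any of the 3 hairpins on the opposite strand.

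**Figure D1:**
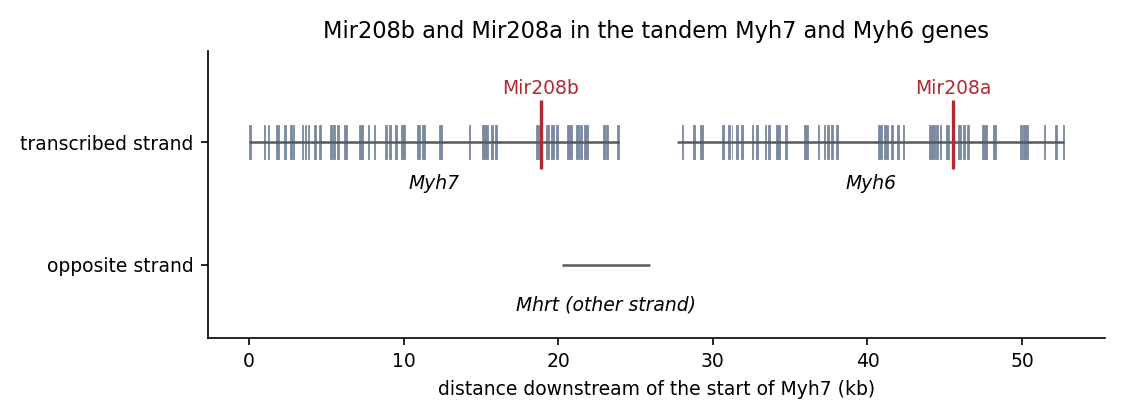
Map of the Myh7 and Myh6 genes along the transcribed strand, with distance downstream of the start of Myh7 in kb on the x axis; grey blocks are exons of the transcripts Myh7-201 and Myh6-201, red lines are the miRNA hairpins, and the lower row is the Mhrt gene on the opposite strand. Mir208b and Mir208a each lie past the middle of their host gene, 26557 bases apart.

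Mir208b was the most abundant of the 3, Mir208a came next and Mir499 was lowest, in both libraries. Levels are own-strand counts scaled to 1000000 own-strand counts over all miRNA genes (CPM), which totalled 18467499 in replicate 1 and 2017294 in replicate 2. Replicate 1 was thus 9.15 times deeper, and a count of 0 allowed up to 0.162 CPM there and up to 1.49 CPM in replicate 2. All 3 genes stood far above these limits. Intervals and limits reflect counting error alone, because the reads carry no molecular identifiers and may repeat 1 molecule. In bulk tissue, fewer cells of a type and less RNA per cell cannot be told apart, and CPM of different miRNAs compare reads, not molecules, since miRNAs can differ in how well they are captured.

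Mir208b had 858138 counts on its own strand in replicate 1, against 101290 in replicate 2, or 46467 and 50211 CPM. The exact 95% Clopper-Pearson intervals were 46372 to 46564 CPM and 49910 to 50513 CPM. It was the sixth gene in each library, where it took 4.65% and 5.02% of the own-strand counts. Ranks and shares leave out reads that map to several places, which stand on no gene. Mir208a had 189499 and 22191 counts, or 10261 CPM (10215 to 10307) in replicate 1 and 11000 CPM (10857 to 11145) in replicate 2. It held rank 20 in replicate 1 and rank 19 in replicate 2. Mir499 had 30707 and 3886 counts, or 1663 CPM (1644 to 1681) and 1926 CPM (1866 to 1988), at ranks 70 and 69. Each gene was higher in replicate 2, and no value of 1 gene reached the range of another.

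Relative to its mean, Mir499 varied most between the replicates: the SD was 10.4% of the mean, against 5.48% for Mir208b and 4.92% for Mir208a (n = 2). Together the 3 genes held 1078344 counts in replicate 1 and 127367 in replicate 2, or 5.84% and 6.31% of all own-strand counts. Within that sum the makeup was much the same in both libraries. Mir208b made up 79.58% (79.50 to 79.66%) in replicate 1 and 79.53% (79.30 to 79.75%) in replicate 2. Mir208a made up 17.57% (17.50 to 17.65%) and 17.42% (17.21 to 17.63%). Mir499 made up 2.85% (2.82 to 2.88%) and 3.05% (2.96 to 3.15%), and its intervals alone did not overlap.

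**Figure D2:**
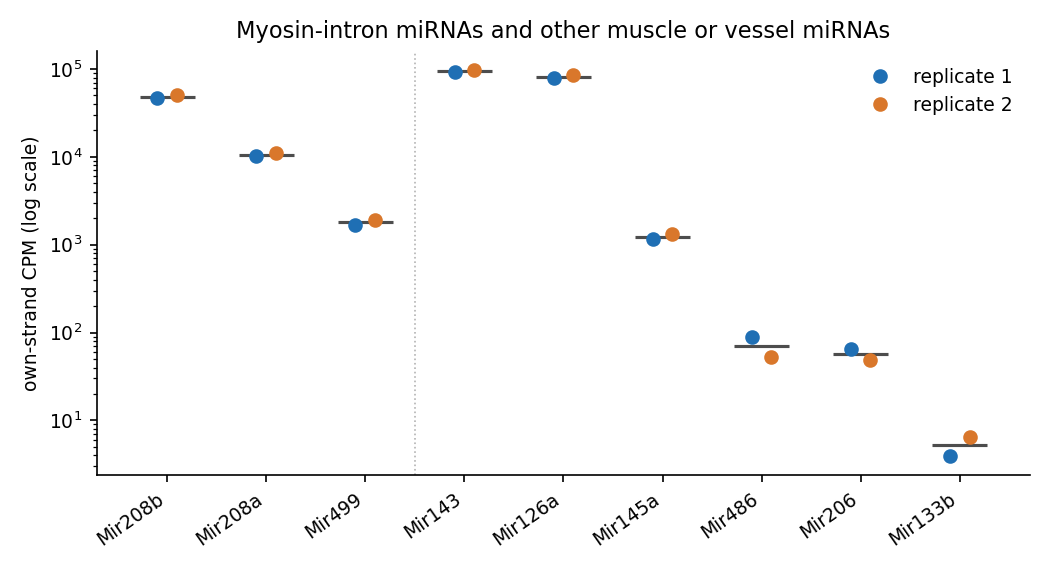
Own-strand CPM (y axis, log scale) of the 3 myosin-intron miRNA genes, left of the dotted line, and of 6 muscle or vessel miRNA genes; points are the libraries, and the horizontal bar is the mean of both. Mir208b lies below Mir143 and Mir126a, and Mir499 lies between Mir208a and the genes listed for skeletal muscle, Mir206 and Mir133b. Mir133b has near-identical copies, so its points show counts at that locus and not miR-133.

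The order of the levels was compared within each library. Mir208b exceeded Mir208a 4.53-fold in replicate 1 (exact binomial 95% interval 4.51 to 4.55) and 4.56-fold in replicate 2 (4.50 to 4.63). These intervals overlap. Mir208a exceeded Mir499 6.17-fold (6.10 to 6.25) and 5.71-fold (5.52 to 5.91), with intervals that do not overlap. Mir208b exceeded Mir499 27.9-fold (27.6 to 28.3) and 26.1-fold (25.2 to 26.9). All 3 ratios were larger than the spread between replicates, taken here as the same direction in both libraries, intervals that leave out equality, and a mean log2 ratio above its SD. The mean log2 ratio of Mir208b to Mir499 was 4.75 ± 0.07 (SD, n = 2). With 2 libraries a two-sided sign-flip test cannot give a p below 0.5, so no p across replicates is given.

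Whether these ratios differed between the libraries was tested on the counts with a two-sided Fisher's exact test, adjusted over the 3 pairs by the Benjamini-Hochberg method. This compares 2 libraries and allows for counting error alone. The ratio of Mir208b to Mir208a was 1.01 times as large in replicate 2 (95% Wald interval 0.993 to 1.02, adjusted p = 0.31, exact test). The ratio of Mir208a to Mir499 was 0.925 times as large (0.892 to 0.959, adjusted p = 8.9e-05, exact test). That of Mir208b to Mir499 was 0.933 times as large (0.902 to 0.965, adjusted p = 0.00010, exact test). Replicate 1 was also thinned to the total of replicate 2 in 1 random draw, in which both changes with Mir499 came out smaller. The adjusted p of the pairs with Mir499 was then 0.066 for Mir208a and 0.11 for Mir208b in the exact test.

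**Figure D3:**
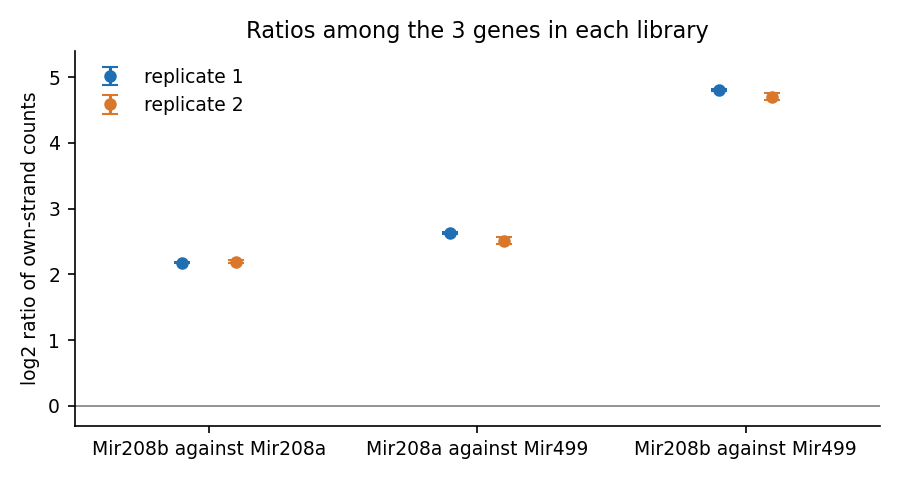
Log2 ratios of own-strand counts (y axis) for the 3 pairs of genes in each library, with exact binomial 95% intervals as bars; the line at 0 marks equal counts. The pair of Mir208b and Mir208a gave nearly the same ratio in both libraries, and both ratios to Mir499 were lower in replicate 2.

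All 3 genes were higher in replicate 2 by a small factor. Mir208b stood at 1.08 times its CPM in replicate 1 (interval 1.07 to 1.09), Mir208a at 1.07 times (1.06 to 1.09) and Mir499 at 1.16 times (1.120 to 1.198). Each passed the two-sided exact binomial test, run on each of the 419 genes at 1 CPM or more in both libraries. This test sets 1 library against 1 library and allows for counting error alone. The adjusted p was 4.0e-116 for Mir208b, 4.1e-21 for Mir208a and 2.9e-16 for Mir499 by this exact test. Of the 419 genes, 14.3% were called higher in replicate 2. Of the 85 genes at 1000 CPM or more in both libraries, where the 3 members lie, 38.8% were. None of the 3 changed by 2-fold, while 2.63% of the 419 genes were called at that size in either direction. The exact test of edgeR, run with 1 common dispersion, gave each of the 3 an adjusted p of 1, called 5 genes in all, and left 13 with an unadjusted p under 0.05. That dispersion, a biological coefficient of variation of 17.6%, was estimated from the same 2 libraries that are compared, so with 1 library on each side this test says nothing on whether shifts of this size are stable.

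Set against the other abundant genes, the shifts of Mir208b and Mir208a were common in size and that of Mir499 was less so. Over the 85 genes the median absolute fold was 1.05. A log2 ratio at least as far from 0 as that of Mir208b occurred in 21 of them, as that of Mir208a in 27, and as that of Mir499 in 3, the gene itself included. The count for Mir499 rests on a narrow margin, since the next gene below its 0.2123 stood at -0.2119.

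**Figure D4:**
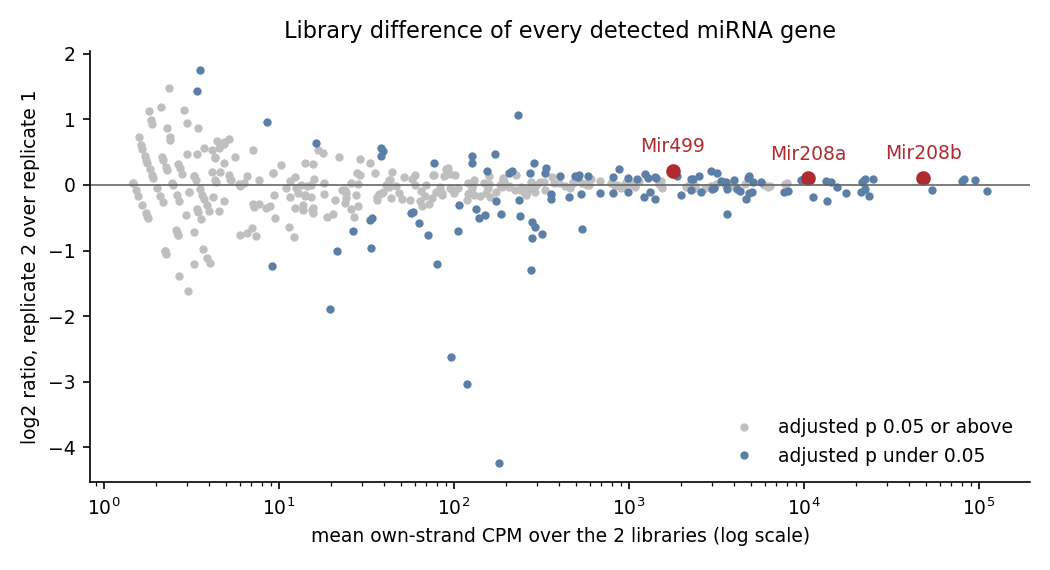
Log2 ratio of replicate 2 over replicate 1 (y axis) against mean own-strand CPM (x axis, log scale) for the 419 detected genes; blue points passed the exact binomial test at an adjusted p under 0.05, grey points did not, and the 3 myosin-intron genes are red. All 3 red points lie just above 0, with Mir499 at 0.21, Mir208b at 0.11 and Mir208a at 0.10.

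Summed markers of other cell types stood beside these shifts. The genes listed for smooth muscle, Mir143 and Mir145a, together stood at 93726 and 98626 CPM, a ratio of 1.05. Nearly all of this was Mir143, since Mir145a stood at 1163 and 1313 CPM, a ratio of 1.13. The endothelial gene Mir126a stood at 79505 and 84700 CPM, a ratio of 1.07. Mir206 and Mir133b, listed for skeletal muscle, summed to 69.5 and 55.0 CPM. In that sum Mir206 stood at 65.6 and 48.6 CPM, and Mir133b, in the opposite direction, at 3.95 and 6.44 CPM. Mir133b has near-identical copies, so its counts do not measure miR-133. Mir451a and Mir144 of red blood cells summed to 995 and 983 CPM. The 7 epithelial genes summed to 2144 and 1488 CPM, and the liver gene Mir122 stood at 395 and 160 CPM. Of the 6 neural genes 5 are in the table, and none reached 1 CPM in both libraries. They are copies of Mir124a and of Mir9, and reads shared between copies stand on no gene. Their counts therefore do not measure these neural miRNAs. The part of these cell types in the shift of the 3 myosin-intron genes was not tested.

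Within each library the members were set against 4 miRNAs listed for other muscle and vessel cells, and all 12 ratios were larger than the spread. The 3 ratios to Mir133b rest on 73 and 13 counts of a gene with near-identical copies, so they compare counts at that locus and not miR-133. Mir208b stood below Mir143, listed here for smooth muscle, at 0.502 times its counts in replicate 1 and 0.516 times in replicate 2. It also stood below Mir126a, at 0.584 and 0.593 times. Mir208a had 0.129 times the counts of Mir126a in replicate 1 and 0.130 times in replicate 2. Mir499 had 0.0209 and 0.0227 times. Against Mir206, known from skeletal muscle, Mir208b was 709-fold higher in replicate 1 (670 to 750) and 1034-fold higher in replicate 2 (848 to 1273). Mir499, the lowest member, exceeded Mir206 by 25.4-fold (23.9 to 26.9) and 39.7-fold (32.4 to 49.0). The cell types are labels given to these genes. Which cells of the heart hold these miRNAs was not measured, so the ratios do not compare amounts of cell types.

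The other listed cardiac and skeletal muscle miRNA genes had far lower counts. Of 9 listed genes 7 are in the table and 6 reached 1 CPM in each library, from 2.10 CPM for Mir1b to 71.0 CPM for Mir486 on average. Between the libraries 1 of these 6 was called higher in replicate 2, 2 were called lower and 3 did not pass the exact binomial test. Over all 419 detected genes 14.3% were called higher and 15% lower. Mir133a-1, higher in replicate 2, had 30 and 11 counts. Mir206 was lower at 65.6 and 48.6 CPM, and Mir486, which is abundant in red blood cells, at 89.5 and 52.5 CPM. Mir133b stood at 3.95 and 6.44 CPM and Mir1a-1 at 2.98 and 1.49 CPM, neither past the test. The 1 CPM cut lies below the 1.49 CPM that a count of 0 allows in replicate 2. There Mir1a-1 had 3 counts, which is that limit, and Mir1b had 4. Mir133a-2, with 23 and 0 counts, was not detected. The Mir1 and Mir133 genes have near-identical copies, and reads shared between copies stand on no gene, so these counts do not measure miR-1 or miR-133.

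The genes nearest to each member in level were found by the distance between log2(CPM + 1) values over the 2 libraries. For Mir208b they were Mir99a at 54071 ± 2017 CPM (SD, n = 2), Mir322 at 80309 CPM and Mir126a at 82102 CPM. Mir99a stood at 55497 and 52645 CPM, so even its lower value lay above the higher value of Mir208b. For Mir208a they were Mir30a at 10117 ± 429 CPM, Mir411 at 9666 ± 383 CPM and Mir351 at 11388 ± 983 CPM. The range of Mir208a overlapped those of Mir30a and Mir351 and not that of Mir411. For Mir499 they were Mir15b at 1901 ± 130 CPM, Mir484 at 1532 ± 47.3 CPM and Mir872 at 1551 ± 30.1 CPM. The range of Mir499 overlapped that of Mir15b alone among these.

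Lying in an intron of a protein-coding gene on the same strand was common among the counted genes, with 661 of 1894 matched genes. Of these 161 were detected, or 24.4%, against 20.9% of the other 1233 genes, and the median level of the detected ones was 43.0 CPM against 113 CPM. All 3 members stood well above that median. Among the 661 by mean CPM, Mir208b held place 3, Mir208a place 10 and Mir499 place 28. The intronic genes together took 45.4% and 45.3% of own-strand counts in replicates 1 and 2.

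The strand of the reads was checked last. The column taken as the opposite strand held 4 counts for Mir208b and 1 for Mir208a in replicate 1, and 0 for Mir499. In replicate 2 it held 0 for all 3 genes, which allows a share of up to 0.00296% for Mir208b, 0.0135% for Mir208a and 0.0772% for Mir499. Over all genes the share was 4.59% and 4.48% in replicates 1 and 2. Counts of the members on both strands therefore differed from their own-strand counts by at most 4.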

How the data were processed

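For each library the deposited table holds raw read counts by miRNA gene, made on mm10 with GENCODE M4 per the notes beside it. The aligner was not given in the sources used here, nor was the counter. The 3 columns have no names and were taken, from their layout and sums, as both strands, own strand and opposite strand. Rows for unmapped, multimapping and no-feature reads were left out of library totals. In mapped reads the no-feature row held 14.2% in replicate 1 and 9.71% in replicate 2.

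CPM, ratios, ranks and exact intervals were computed in Python 3.11.15 with scipy 1.17.1. The exact binomial test and the ratio intervals were checked on simulated counts that hold counting error alone. That check does not cover variation between libraries beyond counting error, nor the Fisher and edgeR tests. The exact binomial test used a Benjamini-Hochberg threshold of 0.05. With 1 group no contrast between conditions exists, so edgeR's quasi-likelihood test was not run; edgeR 4.0.16 gave the exact test at the common dispersion and TMM scaling, and DESeq2 1.42.0 gave size factors. Named genes are the members, the 3 nearest genes in level to each, a muscle list, and Mir143, Mir145a and Mir126a; marker lists covered 8 cell types. Members, lists and tests were chosen with earlier results of these data known. M21 matched 1894 of 1973 genes by ID.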

Additional observations from a re-analysis of the deposited data

Results flagged for a closer look

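The column taken as the opposite strand, which entered no comparison, held 4 counts for Mir208b in replicate 1, above the 3 counts that a count of 0 allows. They stand against 858138 counts on its own strand, a share of 0.000466% (exact 95% Clopper-Pearson interval 0.000127 to 0.00119%), and replicate 2 held 0.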

How the results depend on the processing

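Of 123 alternative values 108 met the bounds set here and none reversed. A tested value or a ratio had to keep its direction and call. An untested level had to move by less than the replicate SD, and a count of genes to stay within 1.5 times. Values that left out a replicate met the bounds by construction. With 2 libraries a mean then moves by less than the SD, and each ratio already left out equality in both libraries. Ratios on unstranded counts could hardly differ, since each member gained at most 4 counts. Scaled to all mapped reads, the mean CPM was 26395 for Mir208b, 5804 for Mir208a and 981 for Mir499; without Mir335 in the total it was 54419, 11968 and 2020. A larger or smaller total shows directly in such values and leaves ratios within a library as they are. Leaving out each replicate gave 46467 to 50211 CPM, 10261 to 11000 CPM and 1663 to 1926 CPM. The log2 ratios among the members then ranged from 2.18 to 2.19 for Mir208b to Mir208a, 2.51 to 2.63 for Mir208a to Mir499 and 4.70 to 4.80 for Mir208b to Mir499. With replicate 1 thinned in 1 random draw, the log2 change of Mir208a to Mir499 between libraries was -0.0836, against -0.112 on all counts. That of Mir208b to Mir499 was -0.0619, against -0.101. Neither passed the exact test in this draw, where fewer counts entered and both changes were smaller. Under edgeR's exact test the log2 library ratios were 0.13 for Mir208b, 0.12 for Mir208a and 0.23 for Mir499, all with an adjusted p of 1, at a dispersion that already holds the difference tested. It called 5 genes against 123 by the exact binomial test, and 5 against 11 with a 2-fold minimum; 0 against 60 were higher in replicate 2, with 2 at an unadjusted p under 0.05. At 10 CPM in both libraries 7 genes passed with 2-fold, from fewer genes tested. No paired analysis was possible because there is 1 group. In replicate 2 the ratios rest on 3886 counts for Mir499, 98 for Mir206 and 13 for Mir133b.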
